A study of Saccharomyces cerevisiae with 3 samples.

Results

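Cytosolic ribosomal protein genes of Saccharomyces cerevisiae were read from 3 Affymetrix arrays, chosen by the gene symbol that the platform annotation gives a probe set: RPL or RPS with a number and an optional A or B, or one of the stalk genes RPP0, RPP1A, RPP1B, RPP2A and RPP2B. The rule itself uses names and no measured value. It took 147 of the 10762 non-control probe sets, for 127 genes: 77 probe sets of the large subunit (70 genes), 65 of the small subunit (52 genes) and 5 of the stalk (5 genes). In all, 5498 probe sets carried an S. cerevisiae name. Each array was hybridised with biotin-labelled RNA made from total RNA, as 100% baseline, as 99% baseline with 1% spike, and as 90% baseline with 10% spike. The baseline was the same kind of yeast RNA throughout, from W303 MAT-alpha cells carrying cdc15-2, a mutation that blocks exit from mitosis in the heat, which had grown in minimal medium in a fermentor at 23 °C for 340 minutes since the restrictive temperature was lifted. The labels do not name the material that was spiked in. The alpha-specific genes, which MAT-alpha cells express, had values of 13.75 to 14.64 in the baseline array (5 probe sets), and the genes of the opposite mating type had 8.85 to 10.99 (7 probe sets). There was 1 array in each condition, so no value has a replicate error and no test was run, and precision is limited by how few arrays there are.

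A ribosome consists of ribosomal RNA and of proteins that occur mostly once in each particle. The small subunit, built with RPS proteins, decodes the messenger RNA. The large subunit, built with RPL proteins, joins amino acids and holds the exit tunnel, and its stalk of RPP proteins recruits the translation factors. Growing yeast spends much of its transcription on these genes, which share regulators such as Rap1, Fhl1, Ifh1 and Sfp1. Most of them exist as A and B copies, which encode mostly identical or nearly identical proteins. Copies that are alike in sequence can bind the same array probes, so the ID ending of a probe set matters here: one ending in _s_at is meant to match several transcripts, one ending in _x_at may cross-bind, and one ending in _at alone is called unmarked below. Of the 147 probe sets, 118 were unmarked, 23 ended in _s_at and 6 in _x_at.

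The gene table of assembly R64 holds 137 genes with such symbols, of which 127 had a probe set. The 137 form 59 A and B pairs and 19 single-copy genes. Both copies of 50 pairs had a probe set under their own name. The other 9 pairs (RPL1, RPL7, RPL18, RPL35, RPL41, RPL42, RPS4, RPS6 and RPS30) had a probe set named for 1 copy alone, and all 9 had an _s_at probe set, which may also take up signal of the copy that is not named. Of the single-copy genes, 18 were analysed here.

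The ribosomal protein genes gave some of the brightest signals on the arrays. Their median log2 value in the baseline array was 14.07, against 10.81 for all S. cerevisiae probe sets. Of the 147, 141 (95.9%) lay at 13 or more, against 10.2% of all S. cerevisiae probe sets. They filled 48 of the 100 brightest non-control probe sets in each of the 3 arrays. Values of different probe sets also depend on how strongly their probes bind, so they describe signal and do not rank the amounts of messenger RNA.

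**Figure D1:**
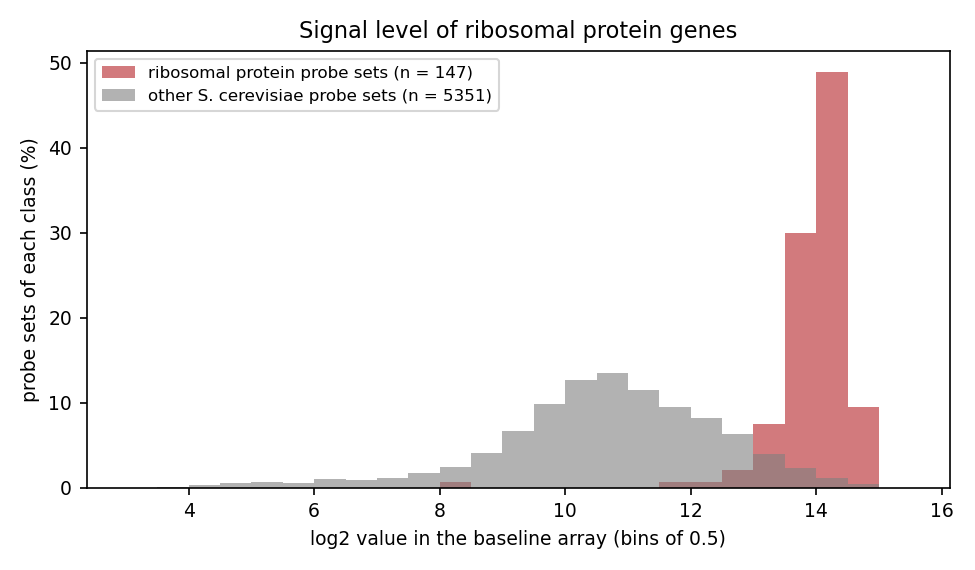
Percentage of probe sets in bins of 0.5 of the log2 value in the baseline array, for the ribosomal protein probe sets and for all other S. cerevisiae probe sets. The ribosomal protein probe sets cluster around 14, and 1 of them, RPL41A, stands apart at 8.11.

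The 4 probe sets with the highest values in the baseline array were those of RPS21B at 14.65, RPL10 at 14.64, RPS21A at 14.63 and the _s_at probe set of RPL2A at 14.63. RPL10 encodes one of the last proteins to join the large subunit. RPL10 was at 14.64, 14.64 and 14.66 in the baseline, 1% and 10% arrays. RPS21B was at 14.65, 14.65 and 14.62 in the same order. The values of both genes thus hardly moved between the arrays.

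At the other end, RPL41A was at 8.11 in the baseline array. Its value was above 7.38% of the S. cerevisiae probe sets, so it was among the dimmest of them. RPL15B followed at 11.64, the unmarked probe set of RPL18B at 12.09 and the _x_at probe set of RPS10B at 12.74. RPL15B and RPL18B were far below other probe sets for the same proteins, which were at 13.84 for RPL15A and 14.48 for the _s_at probe set of RPL18B.

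**Figure D2:**
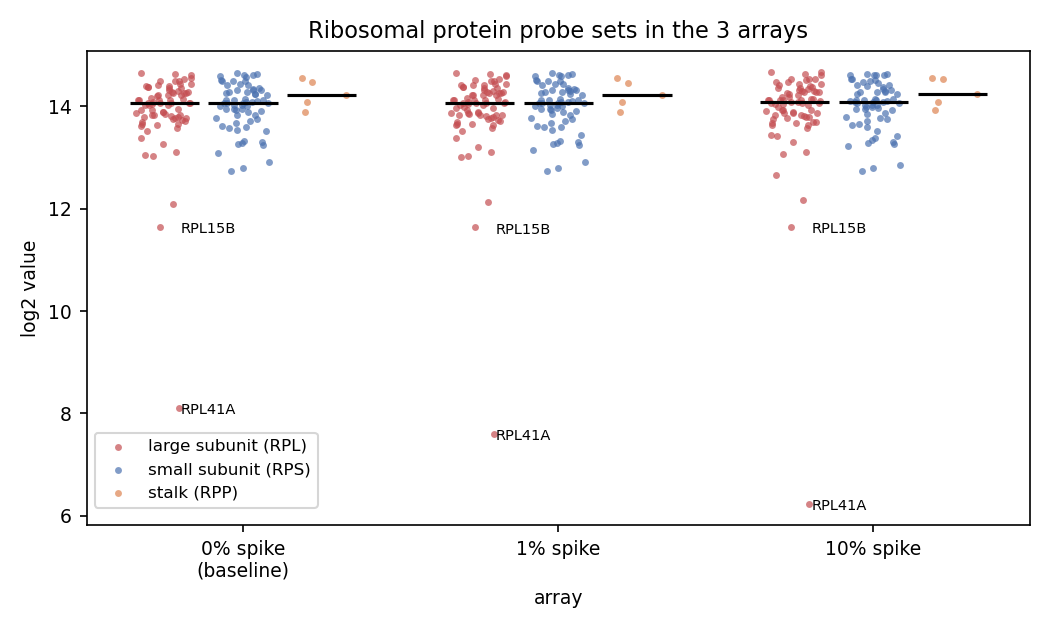
log2 values of the 147 ribosomal protein probe sets in the arrays with 0%, 1% and 10% spike, coloured by large subunit, small subunit and stalk; each point is a probe set and each black line a median. The medians stay near 14, while RPL41A is at 8.11, 7.60 and 6.24 in the 3 arrays.

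With spike added, most ribosomal protein probe sets lay close to their value in the baseline array, as other bright probe sets did. In the 10% array, 139 of 147 (94.6%) lay within 0.1 of it on the log2 scale, against 82.7% of all S. cerevisiae probe sets and 94.8% of the 420 that are not ribosomal protein probe sets and lay at 13 or more in the baseline array. In the 1% array 146 of 147 (99.3%) did, against 98.0% of all S. cerevisiae probe sets and 99.8% of those 420. Values were identical in all 3 arrays for 21 of 147 (14.3%), against 25.9% of all S. cerevisiae probe sets. RMA, which made the values, can return exactly equal ones.

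As deposited, the 147 probe sets had a median 10% over baseline difference of 0.018, or 1.26% on the linear scale, and that of all S. cerevisiae probe sets was 0. Of the 147, 102 (69.4%) had a difference above 0 and 21 (14.3%) one below 0, against a background of 45.1% above and 27.2% below among all S. cerevisiae probe sets. The sign of so small a median rests on the scaling: it was -0.005 after quantile normalization over again, with 62 (42.2%) above 0, where all S. cerevisiae probe sets had a median of -0.013 and 38.3% above 0. It was 0.037 with the arrays centred on their medians, against 0.018 for all S. cerevisiae probe sets, and 0.004 with a trend over level removed, against -0.006. The members' median lay above that of all S. cerevisiae probe sets under these 3 scalings and as deposited, by 0.008 to 0.019. Since the members are bright, bright probe sets were also read on their own. Among probe sets at 13 or more in the baseline array, 101 of 141 ribosomal protein probe sets were above 0, with a median of 0.020, against 49% of the 420 others, with a median of 0. Of the 141, 14.9% were exactly at 0, against 27.6% of the 420. Under the scalings, all 147 members were set beside the 420. The shares above 0 were 42.2% against 31.4% after quantile normalization over again and 89.1% against 86.7% with centred arrays. They were 51.7% against 36.0% with the trend over level removed. The size of this contrast thus rests on the scaling too. The comparisons with bright probe sets were chosen after the data had been seen.

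Between the 1% and the baseline array the median difference was 0. There, 36 of 147 (24.5%) were above 0 and 21 (14.3%) below, against a background of 22.6% and 14.5%, so the members' shares lay close to the background. Between the 10% and the 1% array the median was 0.014, with 101 above and 19 below 0, against a background of 41.2% and 24.2%. After quantile normalization over again that median was 0, with 69 on either side. The comparisons share arrays and are not independent of each other.

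RPL41A was the member with the largest difference. It encodes the smallest protein of the large subunit, from a coding sequence of 78 bases, the shortest gene among the members. Its probe set had log2 values of 8.11, 7.60 and 6.24 with 0%, 1% and 10% spike, so each array with more spike was lower. The differences from the baseline array were -0.51 at 1% and -1.87 at 10%. Values this low can hold much background signal, and whether the probe set was above background is not known, so the differences are those of its signal and give no fold of the transcript. It was the single member at least 2-fold lower in the 10% array, against a background of 0.0364% (2 of 5498 probe sets). No member was at least 2-fold higher, against a background of 0.0182%.

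Dim probe sets leaned the same way as RPL41A, by less. Of the 570 other S. cerevisiae probe sets within 1 of its baseline value, 47.7% were below 0 at 10% and 21.6% above, 71 were at least 0.2 lower, and the lowest was at -0.94. The part of dim signal in the difference of RPL41A was not tested. A part of gene span was not tested either. Other short ribosomal protein genes lay at high levels, so gene span and dim signal cannot be told apart with them. The 8 probe sets of members spanning up to 300 bases (RPL29, RPL38, RPS28A, RPS28B and both probe sets each of RPS29A and RPS29B) had differences of -0.002 to 0.075 at 10%. Across the 146 members without RPL41A, which share the arrays, Spearman's rho was 0.12 between gene span and the 10% over baseline difference and -0.045 between baseline level and that difference. Of these members, 141 lay at 13 or more in the baseline array, so neither value covers dim signal.

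**Figure D3:**
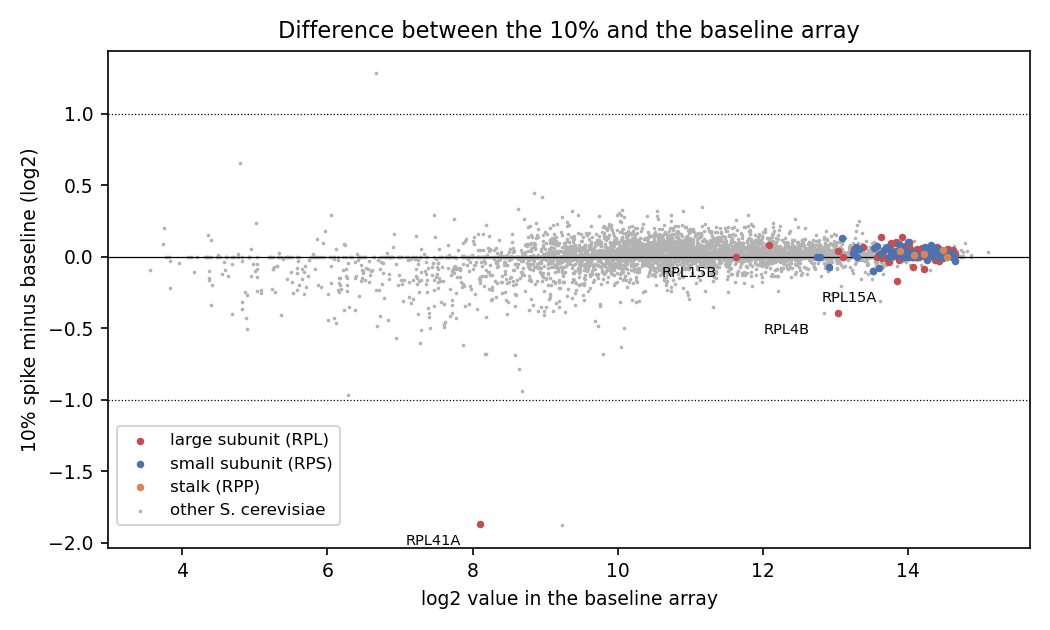
Difference between the 10% and the baseline array (log2) against the log2 value in the baseline array, for ribosomal protein probe sets by subunit and for the other S. cerevisiae probe sets in grey; dotted lines mark 2-fold. RPL41A at -1.87 and RPL4B at -0.39 lie below the band of the other members, all of which are between -0.17 and 0.14.

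RPL4B was the other member past 0.2, so 2 of 147 were at least 0.2 lower at 10%, against a background of 3%, and 0 were at least 0.2 higher, against a background of 1.42%. RPL4 is a large subunit protein with a loop that reaches into the exit tunnel. RPL4B had 13.04, 12.999 and 12.65 in the baseline, 1% and 10% arrays, a difference of -0.39 at 10%. RPL4A, read by an _s_at probe set, had 14.53 in all 3 arrays. An _s_at probe set may take up both copies, and no unmarked one was named for RPL4A, so the values do not tell the copies apart. Between the 10% and the 1% array the same 2 members were at least 0.2 lower, against a background of 2.56%, and 0 were at least 0.2 higher, against 0.582%. In the 1% array 1 member, RPL41A, was at least 0.2 lower, against a background of 0.291%, and 0 were at least 0.2 higher, against 0.0728%.

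The next lower values were small. RPL15A, for a large subunit protein that binds ribosomal RNA, was at 13.67 in the 10% array and 13.84 in the baseline array, a difference of -0.17. RPS22B differed by -0.099, of which -0.093 was already present at 1%. RPL39, a very small protein that lines the exit tunnel, differed by -0.098 and RPL43B by -0.076. The unmarked probe sets of RPL8A and RPS17B differed by -0.086 and -0.079, but the _s_at probe sets of the same genes by 0.097 and 0.051.

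Among the higher values, RPL9A came first with 13.77 in the 10% array and 13.63 in the baseline array, a difference of 0.14. RPL23B was at 14.05 in the 10% array and 13.92 in the baseline array, a difference of 0.13. RPS14B, whose copy RPS14A was first known as the cryptopleurine resistance gene CRY1, was at 13.22 in the 10% array and 13.09 in the baseline array, also a difference of 0.13. The unmarked probe set of RPS24A differed by 0.10, RPL11A by 0.10, RPL19A by 0.10, the _s_at probe set of RPL8A by 0.097 and that of RPL20B by 0.093. RPL11 is one of the proteins that join the large subunit together with its small ribosomal RNA. None of these higher members reached 0.2. The 10% over baseline differences of these 8 probe sets and of the 8 lowest, RPL41A and RPL4B included, were read under the 3 scalings. They had the same sign in 16 of 16 cases under each scaling, and the scalings moved them by at most 0.036. The smallest in size of the 16 was that of RPL43B, at -0.076. Shifts of at most 0.036 could not turn any of these signs, so the kept signs do not test the differences.

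The large and small subunits had nearly the same signal in every array. The median log2 value of the 77 large subunit probe sets was 14.08 in the 10% array and 14.06 in the baseline array, and that of the 65 small subunit probe sets was 14.08 and 14.06 in the same order. The difference of the medians, large minus small, was -0.003, -0.003 and 0.002 in the baseline, 1% and 10% arrays. Their response was alike in size too. As deposited, the 10% over baseline median was 0.017 for the large subunit, with 54 (70.1%) above and 13 (16.9%) below 0. It was 0.019 for the small subunit, with 44 (67.7%) above and 8 (12.3%) below. The background over all S. cerevisiae probe sets was 45.1% above and 27.2% below. The range was wider in the large subunit, from -1.87 to 0.14, than in the small subunit, from -0.099 to 0.13. Without the dim RPL41A the large subunit ran from -0.39, the value of RPL4B, to 0.14. Then 71 of 76 lay within 0.1, beside 63 of 65 in the small subunit. Both members past 0.2 encode large subunit proteins, as do 77 of the 147 probe sets.

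The stalk genes and the ubiquitin fusions were close to this picture. RPP0, which anchors the stalk on the ribosome, had 14.48, 14.45 and 14.52 in the baseline, 1% and 10% arrays, a 10% over baseline difference of 0.049. The acidic proteins that sit on it in pairs differed by 0.040 for RPP1A, 0.020 for RPP1B, 0.011 for RPP2A and 0 for RPP2B. RPL40A, RPL40B and RPS31 encode a ribosomal protein fused to ubiquitin, which is cut off after translation. They differed by 0.068, 0.001 and 0.037. Over the 18 single-copy genes measured the median was 0.015, with 11 (61.1%) above and 6 (33.3%) below 0, against a background of 45.1% and 27.2%. Among them RPL39 at -0.098, RPP0 at 0.049 and RPL32 at 0.040 lay farthest from 0.

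A and B copies were then set against each other within each array, with the probe sets of a copy averaged. In the 10% array A was above B in 29 of 50 pairs and below in 21, the median of A minus B was 0.038 and its median size was 0.29. In the baseline array A was above B in 28 and below in 22, with a median of 0.070 and a median size of 0.28. The sizes varied widely, with 5 pairs at 1 or more and 16 under 0.2 in the baseline array. A minus B holds the binding of 2 different probe sets as well as the amounts of the 2 transcripts, and these cannot be told apart. Averaging also puts _s_at probe sets, which may take up both copies, into the value of 1 copy. With unmarked probe sets alone, A was above B in 30 of 49 pairs and below in 19 in the baseline array. The sign then turned for RPL8 (-0.086 to 0.11), RPL14 (-0.10 to 0.27) and RPS18 (-0.16 to 0.057).

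With the probe sets of a copy averaged, the largest differences between copies all had A above B. RPL15A and RPL15B were at 13.84 and 11.64 in the baseline array, an A minus B of 2.21. RPL4 followed at 1.49, RPL26 at 1.24, RPS14 at 1.14 and RPL22 at 1.01. RPL22A and RPL22B were at 14.12 and 13.11 in all 3 arrays. The RPL4 value sets an _s_at probe set against an unmarked one. With unmarked probe sets alone, which leaves 49 pairs, 6 were at 1 or more in size, among them RPL15, RPL26, RPS14 and RPL22 again and RPL21 at -1.18, the last named after its value was seen. RPS7 at 0.002, RPS21 at -0.017, RPL34 at 0.023, RPL19 at -0.038 and RPL16 at 0.061 had the smallest differences in the baseline array.

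The difference between copies was nearly the same in each array. Between the 10% and the baseline array, A minus B moved by at most 0.1 in 47 of 50 pairs, with a median size of 0.029, and in the 1% array by at most 0.1 in all 50. Taken singly, 94.6% of the members moved by at most 0.1 in the 10% array. So did 94.8% of the 420 bright probe sets that are not members. In the 1% array these shares were 99.3% and 99.8%. Pairs of other bright probe sets were not read, so the steadiness is not shown to be particular to A and B copies. The move was largest for RPL4, whose A minus B was 1.89 in the 10% array and 1.49 in the baseline array, a change of 0.40, with RPL4A read by an _s_at probe set. For RPL15 the change was -0.17, and A minus B was 2.04 in the 10% array and 2.21 in the baseline array. RPS22 changed by 0.15, RPS14 by -0.097 and RPL43 by 0.079. The sign of A minus B differed between these arrays in 3 pairs, RPL19, RPS21 and RPS7, all with sizes under 0.04 in both.

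**Figure D4:**
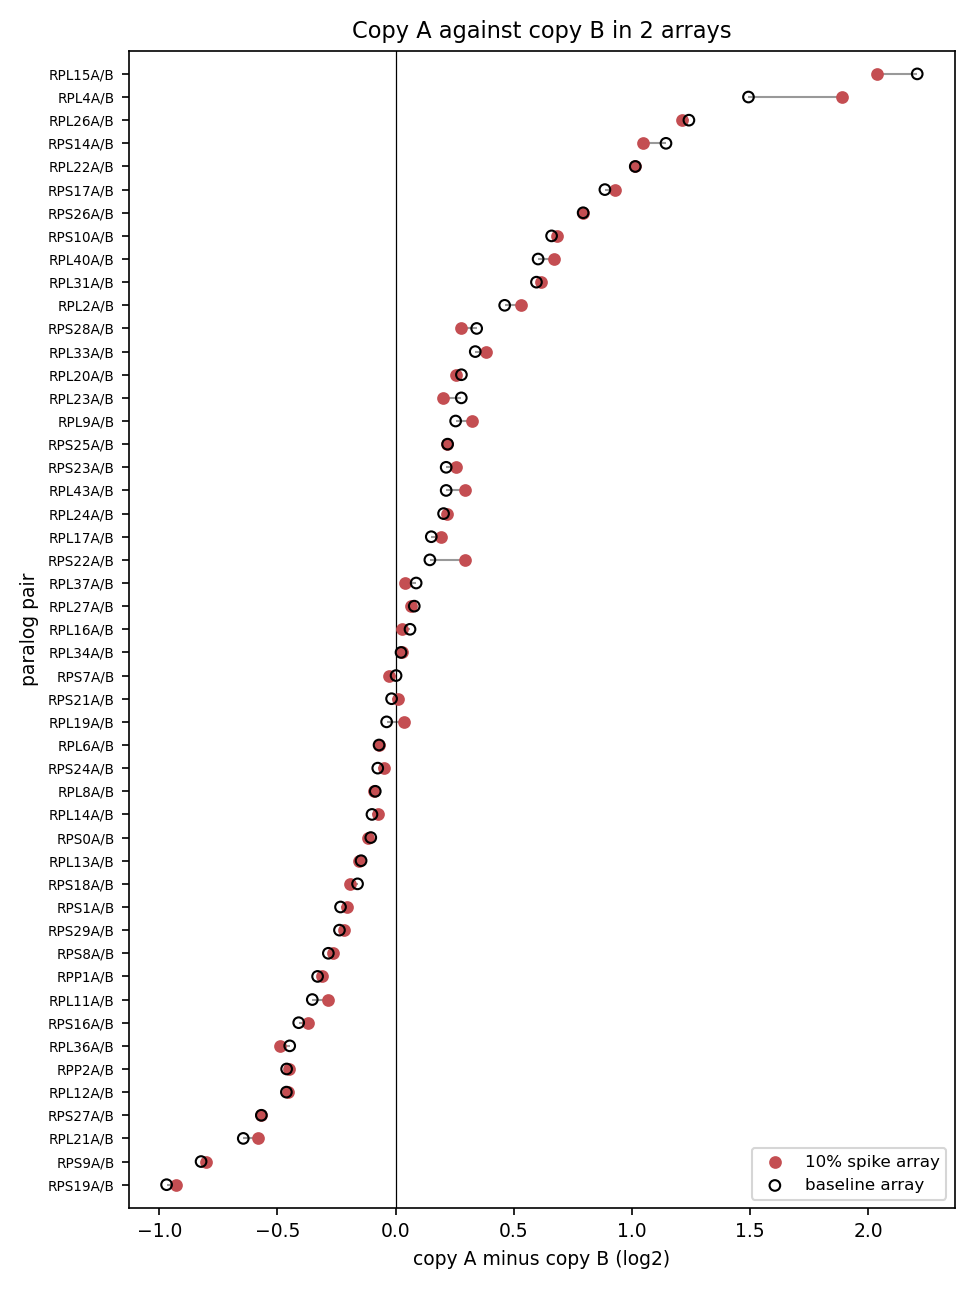
Copy A minus copy B (log2) for 49 of the 50 pairs with both copies measured, filled in the 10% array and open in the baseline array, ordered by the baseline value. The open and filled points of most pairs nearly coincide, with RPL4 (1.89 against 1.49) and RPL15 (2.04 against 2.21) farthest apart.

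For 20 genes an unmarked probe set could be set beside a marked one. In 14 genes the marked probe set ended in _s_at, and it was the brighter in 11 and the dimmer in 3 in the baseline array, with a median of 0.37 for marked minus unmarked. The gap was 2.39 for RPL18B and 1.06 for RPL21A. In the 6 genes with an _x_at probe set it was -0.048 to 0.37. RPL8A at -0.39, RPS17B at -0.28 and RPL20B at -0.065 had the dimmer _s_at probe set. In 3 of the 20 genes, RPL8A and RPS17B among them, the 10% over baseline differences of the 2 probe sets had opposite signs, by up to 0.18 apart. As deposited, 21 of all 23 _s_at probe sets (91.3%) had a difference above 0 at 10%, with a median of 0.043. Of the 118 unmarked ones 78 (66.1%) did, with a median of 0.013, and the background was 45.1%. This contrast was not read under the other scalings, on which the sign of medians this small can rest.

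**Figure D5:**
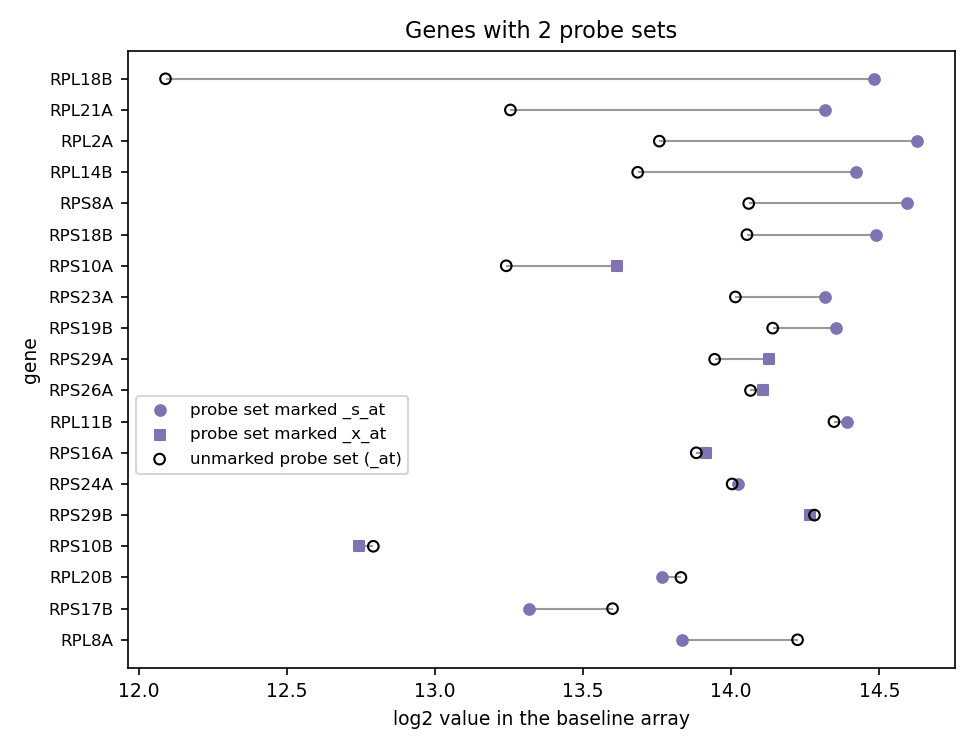
log2 value in the baseline array of 19 of the 20 ribosomal protein genes with 2 probe sets, the marked probe set filled (circles _s_at, squares _x_at) and the unmarked one open, ordered by their difference. RPL18B shows the widest gap, 14.48 against 12.09, and RPL8A the widest in the other direction, 13.83 against 14.22.

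Other genes of ribosomal protein supply and function were read from 3 lists: 8 regulators, 7 chaperones that each escort particular ribosomal proteins, and 5 genes for ribosome-bound factors, in all 21 probe sets for 20 genes. At 10% over baseline, 8 were above 0, 5 below and 8 at 0, with a median of 0, against a background of 45.1% above and 27.2% below. None of the 21 reached 0.2, against a background of 1.42% at least 0.2 higher and 3% at least 0.2 lower. With shares that low, 0 of 21 does not set these genes apart. SQT1, the chaperone of Rpl10, was highest at 0.19, with 12.23 in the 10% array and 12.03 in the baseline array. BCP1, the chaperone of Rpl23, was at 0.15. The regulators SFP1 and CRF1, a corepressor of ribosomal protein genes, were at 0.12 and -0.15, and CRF1 was dim, at 6.03 in the 10% array and 6.18 in the baseline array. FHL1 and IFH1, the pair that activates these genes, had identical values in all 3 arrays. Genes of the ribosome-bound list were bright, with a median log2 value of 14.42 in the baseline array, beside 14.07 for the ribosomal proteins themselves.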

How the data were processed

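Total RNA was measured on 3 arrays, 1 for each mixture. The authors deposited a log2 value for each probe set on each array, made with RMA, per the submitters' processing notes; RMA removes background, brings all arrays to one distribution and combines the probes of a set. That the scale is log2 rests on the range of the values and on RMA's usual output. No source used here gives the RMA version or says which arrays were normalized together. Equalized distributions can hide a shift common to most RNA.

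Values were used as deposited (10928 rows, 166 AFFX controls left out). Names came from the platform annotation through gene identifiers to assembly R64, which changed 0 member symbols. Differences were rounded to 3 decimals and described by counts (0.2 and 2-fold) and medians beside all S. cerevisiae probe sets. The counting was tested on simulated data. A gene's span is that of the R64 table. Named genes are the extremes of differences, levels and A minus B, with all stalk and ubiquitin fusion genes. The members and lists were chosen with earlier results of these data known. Python 3.11.15, pandas 2.3.3 and statsmodels 0.14.6 (loess, span 0.3) were used. There were 8 alternative settings and 1 added later. Values of some genes are not reported here.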

Additional observations from a re-analysis of the deposited data

How the results depend on the processing

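With 1 array per condition, no array could be left out. No paired analysis was possible because each group holds 1 array. Of 252 values of 29 summary results under alternative settings, 220 stayed within 1.5 times for counts or the SD of all S. cerevisiae probe sets for medians, and 32 moved. That SD was 0.10 for 10% over baseline, 0.033 for 1% over baseline and 0.085 for 10% over 1%. It is wide beside the members' medians of 0.018, 0 and 0.014. A median that went from 0.018 to -0.005 still counted as staying, so the 220 do not show that medians this small hold. RPL41A stayed over 2-fold lower under the 3 scalings. Scalings shift all probe sets, so counts by sign are given beside the shares of all S. cerevisiae probe sets. After quantile normalization over again, 62 members were above and 82 below 0 in 10% over baseline (38.3% and 60.0% of all S. cerevisiae), 115 below 0 in 1% over baseline (73.6%) and 69 below 0 in 10% over 1% (58.6%). With centred arrays, 8 were above and 139 below 0 in 1% over baseline (9.69% and 90.1%), and 8 below 0 in 10% over 1% (13.02%). With the loess trend removed, 70 were below 0 in 10% over baseline (57.1%) and 69 in 10% over 1% (56.7%). Members with a mean level below 14, which are fewer, gave 38 above and 11 below 0 in 10% over baseline, 16 and 11 in 1% over baseline and 37 and 9 in 10% over 1%. The background over all S. cerevisiae probe sets was 45.1% and 27.2%, 22.6% and 14.5%, and 41.2% and 24.2% in the same order. The shares of these members were not worked out. They gave 12 pairs, with A above B in 10 in the baseline array, and a median A minus B of 0.20 in the 10% array. Their large minus small medians were 0.12 in both the baseline and the 1% array. Members at least 0.2 lower numbered 1, 0 and 1 in 10% over baseline, 1% over baseline and 10% over 1% without RPL41A, without _s_at and _x_at probe sets, and with members above the array median or, added after seeing the data, at 13 or more in the baseline array, since each of these leaves RPL41A out; with all members they were 2, 1 and 2.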

Other observations

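The array also carries 13 probe sets whose symbols begin with rpl or rps in lower case, of an organism that the annotation does not name. Their log2 values in the baseline array ran from 4.21 for rpl44 to 8.13 for rpl13, all below every ribosomal protein probe set of S. cerevisiae apart from RPL41A, and the highest, rpl13, lay just above the 8.11 of RPL41A. In 10% over baseline, 5 (38.5%) were above 0, 0 below and 8 at 0, against 38.1% above and 23.6% below among all non-control probe sets. The largest difference was 0.26 for rps13, which had 7.53, 7.59 and 7.80 in the baseline, 1% and 10% arrays. The probe set for rpl29 differed by 0.10 and that for rps21 by 0.094. RPS13, the S. cerevisiae gene, was at 14.60 in the 10% array and 14.58 in the baseline array.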
